A study of Mus musculus with 18 samples.

Results

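The balance between extracellular proteases and their inhibitors was followed in mouse dorsal root ganglia (DRG) through 10 genes, out of 36737 in the deposited table. They were *A2m*, *Timp1*, *Timp2*, *Timp3*, *Timp4*, *Serpina3n*, *Serpine2*, *Mmp2*, *Mmp14* and *Lrp1*. The set was built around *A2m* because its measured level was lower in both comparisons with sham mice. These comparisons are therefore given for *A2m* as a description, without a test. L3–L5 DRG came from adult CD1 mice, an outbred strain, in groups named Sham, Fracture and Fracture+PDX. Sham mice had sham surgery, whose steps are not described in the sources used here. Mice of both other groups received a fracture of the left tibia with a pin in the marrow cavity, under isoflurane, and their ganglia were collected on day 3. Fracture mice received vehicle, and Fracture+PDX mice received protectin DX (PDX), a lipid mediator derived from docosahexaenoic acid. The day of the Sham ganglia and the dose of these mice are not given in the sources used here. Each group held 6 libraries, from 3 females and 3 males, with 1 mouse per library, so that p-values measure the spread between mice.

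Matrix metalloproteinases (MMPs) cut collagens and other proteins of the extracellular matrix, and they also release or inactivate growth factors and cytokines. Tissue inhibitors of metalloproteinases (TIMPs) block them one to one in the active site. Alpha-2-macroglobulin, the product of *A2m*, takes up proteases of every class in a molecular trap, and the receptor encoded by *Lrp1* then clears the complex. Serpins are suicide inhibitors, most of them directed at serine proteases. In peripheral nerve and DRG these genes are used by satellite glia, Schwann cells, fibroblasts, vessel cells and neurons. In bulk tissue such as this, fewer cells of a type and less RNA per cell cannot be told apart.

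*A2m* lies on chromosome 6 from 121635376 to 121679227 of GRCm38 (mm10), on the plus strand. Its protein carries an internal thioester, which binds a trapped protease covalently. The coding bases of this site are shown beside those of *A2ml1*, a gene of the same family that was called higher in Fracture against Sham and carries the same site. *A2m* is read from chr6:121668093-121668125 on the plus strand and *A2ml1* from chr6:128552250-128552282 on the minus strand, both in exon 24 of the GENCODE M21 transcript. Capitals mark the codons of the thioester site, and 28 of the 33 bases were the same.
A2m: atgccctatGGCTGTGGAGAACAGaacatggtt
A2ml1: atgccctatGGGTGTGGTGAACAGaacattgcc

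The proteases of the set are *Mmp2*, or gelatinase A, and *Mmp14*, a membrane-bound enzyme that activates pro-Mmp2 together with *Timp2*. Their zinc-binding sites are shown because the core of the enzyme is shared, while *Mmp2* was called in a comparison and *Mmp14* in none. *Mmp2* is read from chr8:92839270-92839320 in exon 8 and *Mmp14* from chr14:54437618-54437668 in exon 5, both on the plus strand of GRCm38. Capitals mark the codons of the zinc-binding site, and 38 of the 51 bases were the same.
Mmp2: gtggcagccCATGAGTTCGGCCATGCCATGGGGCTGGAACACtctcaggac
Mmp14: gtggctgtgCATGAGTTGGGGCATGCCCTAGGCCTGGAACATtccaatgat

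The total count of a library lay between 63235040 and 82824942. Levels are given as CPM (counts scaled to a common library size), scaled by TMM over all 18 libraries, and as the deposited FPKM where genes are compared with each other. Differences are log2 fold changes from edgeR's quasi-likelihood test with sex as a covariate, and "called" stands for an adjusted p under 0.05 (Benjamini-Hochberg, over all genes tested). No markers of the ganglion were missing. Satellite glia markers summed to 3255–4577 CPM with overlapping groups, *Kcnj10* among them being called higher in Fracture+PDX. Markers of myelinating Schwann cells summed to 10308–23764 CPM in Sham, 12091–18611 in Fracture and 14739–16508 in Fracture+PDX, with 0 called. The lowest of these sums was that of Sham female 1. Markers of non-myelinating Schwann cells summed to 1370–1507 CPM in Sham, 1454–1693 in Fracture and 1461–1654 in Fracture+PDX, with *L1cam* called higher in both comparisons with Sham and *Ngfr* in Fracture. Sensory neuron markers summed to 11154–11861 CPM in Sham, 12594–13183 in Fracture and 11988–13646 in Fracture+PDX, above every Sham library in both. Of the 8, 3 were called higher in each comparison with Sham, where 2.92% (Fracture) and 4.5% (Fracture+PDX) of all genes were called. Macrophage markers summed to 74.8–88.9 CPM in Sham, 55.2–73.3 in Fracture and 54.6–76.2 in Fracture+PDX, with *Csf1r* called lower in both comparisons and *Adgre1* in Fracture. Endothelial markers summed to 96.3–121 CPM in Sham, 86.0–103 in Fracture and 83.8–98.8 in Fracture+PDX, with *Cdh5* called lower in both. The part of these cell types in the differences of *A2m*, *Mmp2* and *Serpina3n* was not tested. The libraries also held RNA of placenta and decidua markers, in males as in females. The sum of 6 such markers (*Prl3b1*, *Prl2c2*, *Psg21*, *Tpbpa*, *Prl8a2* and *Prl3d1*) ran from 152 to 501 CPM in Sham, from 26.3 to 230.0 in Fracture and from 25.5 to 121 in Fracture+PDX. In Fracture against Sham 2 of the 6 were called lower, beside 2.92% of all genes called, and in Fracture+PDX against Sham 5 of the 6, beside 4.5%. *Prl3d1* had 0 counts in at least 1 library. This difference separated the Sham libraries from most of the others, and its values are given below beside the results.

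*A2m* was lower in both fracture groups than in Sham, which is what the set was selected on. In Sham mice its level was 42.5 CPM at the lowest, 51.0 at the median and 59.2 at the highest. In Fracture mice the corresponding levels were 34.3, 35.0 and 38.6 CPM. In Fracture+PDX mice they were 27.6, 32.9 and 35.7 CPM. Every library of both fracture groups lay below every Sham library, and the plot of CPM by library shows the gap. The means were 51.7 ± 5.90, 35.8 ± 1.75 and 32.2 ± 3.55 CPM (SD, n = 6 each).

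**Figure D1:**
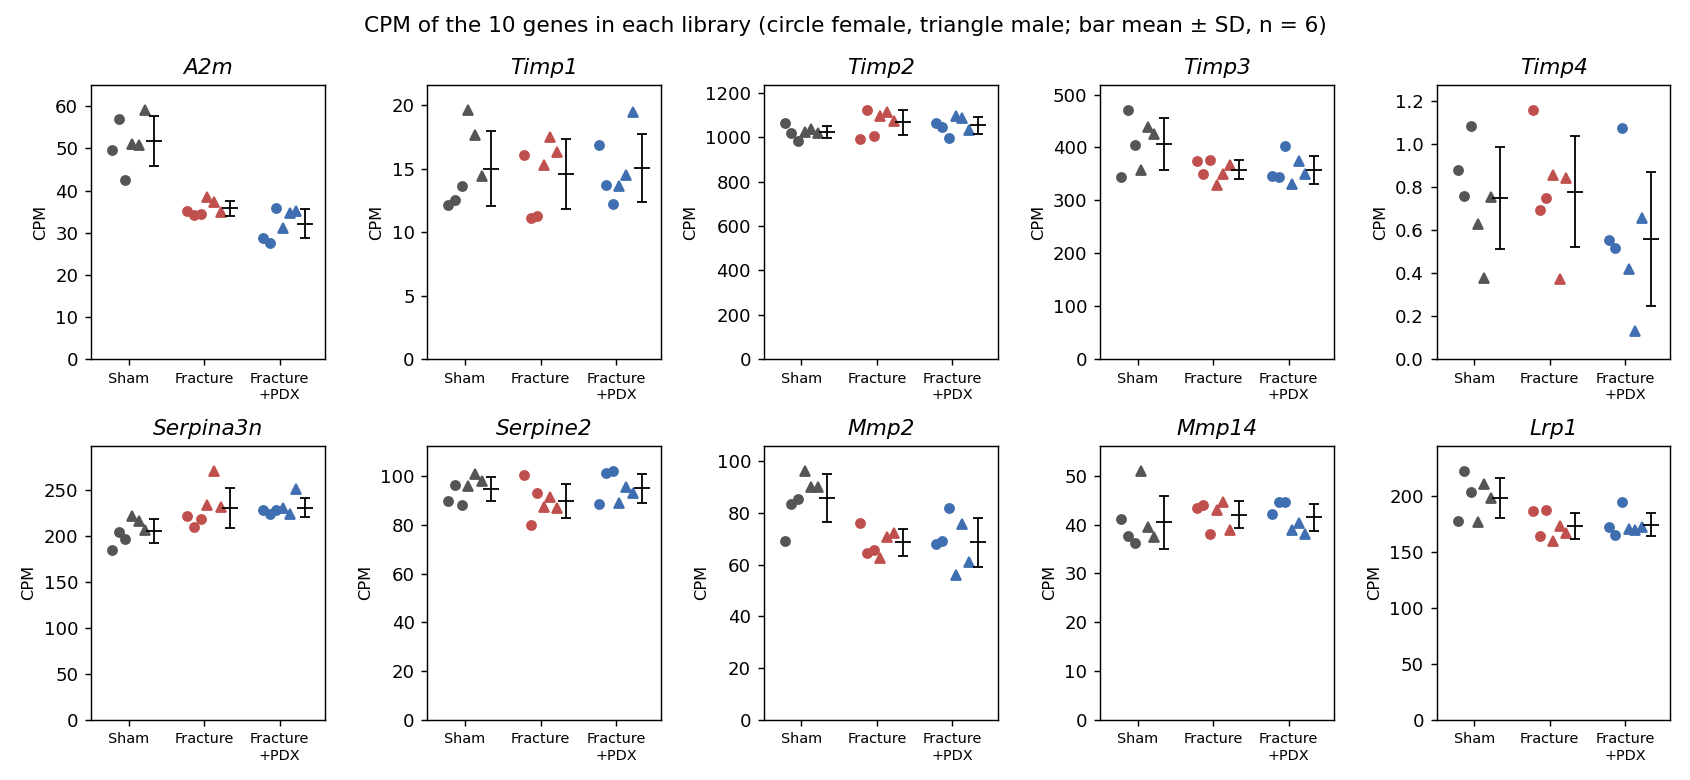
CPM of each gene (y axis, starting at 0) in the 18 libraries, by group (x axis), with circles for females, triangles for males and black bars for the mean ± SD of 6 libraries. All *A2m* values of Fracture and Fracture+PDX lie at or below 38.6 CPM and all Sham values at or above 42.5 CPM, whereas the groups overlap for most other genes.

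The log2 fold change of *A2m* was -0.53 (SE 0.062) in Fracture, 30.8% below Sham, and -0.68 (SE 0.080) in Fracture+PDX, 37.6% below Sham. Both values rest on the same Sham libraries and are those the set was selected on. Females went from 49.7 ± 7.24 CPM in Sham to 34.6 ± 0.504 in Fracture (SD, n = 3). Males went from 53.7 ± 4.70 to 36.9 ± 1.85 CPM (SD, n = 3). The drop on the log2 scale was of similar size in both sexes, -0.51 in females and -0.54 in males, with an interaction of -0.02 (SE 0.13; edgeR adjusted p = 0.988). In that interaction edgeR called 0% of the 20659 genes, while the unadjusted p was under 0.05 for 1488.

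Placental markers moved with *A2m*. Fracture female 3 had a placental sum of 230.0 CPM, above the 152 CPM of Sham female 3. Its *A2m* level was 34.3 CPM against 42.5 CPM in that Sham library. Sham female 3 was the lowest Sham library in both values. *H19* and *Peg10*, imprinted genes that the placenta also expresses, were lower in the same Fracture library, at 120 against 138 CPM for *H19* and 45.0 against 52.7 CPM for *Peg10*. When the mean log2 CPM of the placental list was added to the fit, the log2 fold change of *A2m* was -0.34 (SE 0.090) in Fracture and -0.50 (SE 0.15) in Fracture+PDX. With that covariate only 1 gene, *mt-Rnr1*, was called in Fracture against Sham (1237 at an unadjusted p under 0.05) and 0 in Fracture+PDX against Sham (1086 at an unadjusted p under 0.05) by edgeR. This covariate was chosen after seeing the data. Across the 18 libraries, which share their groups, Pearson's r of *A2m* with the placental mean was 0.82, and 0.39 for deviations from the group means, as a description. Group and placental level went together in these libraries, so their parts in the *A2m* difference cannot be told apart.

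**Figure D2:**
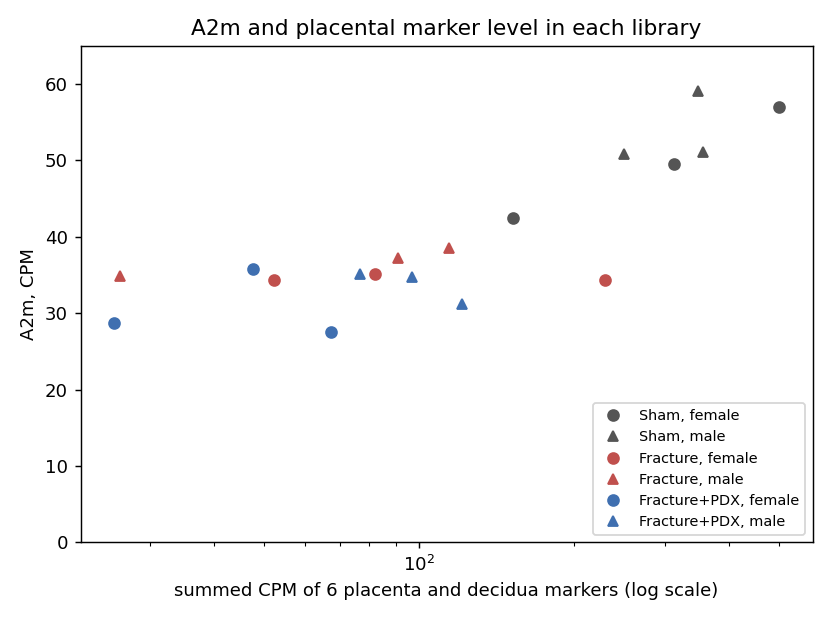
*A2m* in CPM (y axis, from 0) against the summed CPM of 6 placenta and decidua markers (x axis, log scale), 1 point per library, coloured by group with circles for females and triangles for males. The Sham libraries stand at the upper right, the lowest being Sham female 3, at a placental sum of 152 CPM and an *A2m* level of 42.5 CPM. Fracture female 3, at a placental sum of 230.0 CPM, has an *A2m* level of 34.3 CPM.

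The comparison of Fracture+PDX with Fracture asks what PDX adds after the fracture, and *A2m* was not selected on it. *A2m* was 9.70% lower with PDX, a log2 fold change of -0.15 (SE 0.060, 95% interval -0.28 to -0.018). The edgeR adjusted p was 0.893, and 0% of the 20562 genes tested were called. The smallest adjusted p of any gene was 0.671, while 1113 genes had an unadjusted p under 0.05. In a two-sided exact permutation test the difference of mean log2 CPM was -0.16 (p = 0.0671, n = 6 per group, where the smallest possible p is 0.00216). Of the 6 Fracture+PDX libraries 3 lay below every Fracture library. Without female 3, male 2 or male 3 of Fracture+PDX the exact permutation p was 0.026, 0.0476 or 0.039. These libraries hold the 3 highest *A2m* levels of that group, so leaving any of them out widens the difference. Without any other library the p stayed at 0.05 or above.

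The list of the alpha-macroglobulin family held 10 genes, of which 8 were in the table and 7 could be tested in each comparison with Sham. *A2ml1*, an inhibitor of the same build, was higher in Fracture with a log2 fold change of 0.28 (SE 0.057; edgeR adjusted p = 0.0215). In Fracture+PDX it was 0.24 (SE 0.063; edgeR adjusted p = 0.0502). Its mean level of 5.17 FPKM was close to the 5.14 FPKM of *A2m*. The median log2 fold change of the 7 genes was -0.06 in Fracture and 0.06 in Fracture+PDX, beside 0.0021 and -0.0013 for all genes. *Pzp*, a relative of *A2m*, had a mean of only 0.0278 FPKM.

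The TIMPs did not pass the test in any comparison. *Timp2* (chromosome 11, 118301069 to 118355740) was the most abundant member per length at 244 ± 9.57 FPKM (SD, n = 18). Its level was 982, 1023 and 1063 CPM in Sham at the lowest, median and highest, against 993, 1085 and 1124 CPM in Fracture. The groups overlapped, and the log2 fold change was 0.06 (95% interval -0.012 to 0.13) in Fracture and 0.05 (95% interval -0.014 to 0.10) in Fracture+PDX. *Timp3* (chromosome 10, 86300372 to 86349506), the inhibitor bound to the matrix, had levels of 345, 415 and 471 CPM in Sham and 330, 359 and 377 CPM in Fracture. In Fracture+PDX they were 330, 348 and 403 CPM. Its log2 fold changes were -0.19 (SE 0.071; edgeR adjusted p = 0.185) and -0.18 (SE 0.077; edgeR adjusted p = 0.244), with overlapping groups.

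*Timp1* (chromosome X, 20870166 to 20874735), the inducible inhibitor, is known to rise after nerve injury. Here it ran from 12.2 to 19.7 CPM in Sham, from 11.2 to 17.5 in Fracture and from 12.2 to 19.5 in Fracture+PDX. The 3 ranges covered each other almost fully. The log2 fold change was -0.04 (95% interval -0.25 to 0.18) in Fracture and 0.02 (95% interval -0.22 to 0.27) in Fracture+PDX. The value in Fracture+PDX was -0.49 with the placental covariate (SE 0.16; edgeR adjusted p = 0.911). *Timp4* (chromosome 6, 115241892 to 115252205) was near the limit of detection, with 10 to 88 counts per library and 0.129 to 1.16 CPM. *Reck*, a membrane-anchored MMP inhibitor, did not pass the test either, so that edgeR called 0 of the 5 genes of this list in each comparison with Sham. Over all genes 2.92% were called in Fracture and 4.5% in Fracture+PDX, so that few calls are due in a list of 5. Among the 5 genes *Timp3* alone had an unadjusted p under 0.05 in each of these comparisons. Their median log2 fold change was -0.04 in Fracture and -0.11 in Fracture+PDX.

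*Timp1*, *Timp3* and *Timp4* lie inside the synapsin genes *Syn1*, *Syn3* and *Syn2*, each on the opposite strand. *Timp1* shared 0 of its 888 exon bases with *Syn1*, *Timp3* 1733 of 8144 with *Syn3* and *Timp4* 90 of 5894 with *Syn2*. The libraries were strand-specific, but whether the counting used strand is not given in the sources used here. *Syn3* was at 1.83–3.81 CPM, far below *Timp3*. *Syn2* was at 159–201 CPM, far above *Timp4*, so the *Timp4* values are uncertain.

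*Mmp2* (chromosome 8, 92827291 to 92853420) fell after fracture. Its level was 69.0, 87.7 and 96.4 CPM in Sham at the lowest, median and highest. In Fracture it was 62.6, 68.2 and 76.2 CPM, and in Fracture+PDX 56.0, 68.8 and 82.1 CPM. The groups overlapped through Sham female 1, the lowest Sham library. Against Sham the log2 fold change was -0.32 in Fracture (SE 0.069; edgeR adjusted p = 0.0295), 19.7% lower. In Fracture+PDX it was nearly the same, -0.31, but with a wider error (SE 0.10; edgeR adjusted p = 0.115). There it was called without Sham female 1 (-0.38; edgeR adjusted p = 0.0372), without Fracture+PDX female 3 (-0.37; edgeR adjusted p = 0.0431) and with DESeq2 (adjusted p = 0.0179). Between the fracture groups it was 0.0034 (95% interval -0.17 to 0.18).

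*Mmp2* was the only one of the 9 other members called in Fracture against Sham, a comparison in which 2.92% of all genes were called. The call did not hold without any 1 of 8 libraries, namely Sham female 2, male 2 or male 3, and Fracture female 2, female 3 or any of the 3 males. Its adjusted p over all 12 omissions was 0.0152 to 0.0734, with log2 fold changes of -0.37 to -0.28. It did not hold in one fit of all 18 libraries either (-0.32, edgeR adjusted p = 0.0551). With the placental covariate the log2 fold change of *Mmp2* was -0.39 (SE 0.12; edgeR adjusted p = 0.826). Fibroblast and capsule markers, genes of cells that typically make *Mmp2*, summed to 1488–1975 CPM in Sham, 1414–1647 in Fracture and 1297–1837 in Fracture+PDX. Of these 7 markers, *Dcn* was called lower in Fracture, and their median log2 fold change was -0.22 in each comparison with Sham. None of the 7 was at 0, and their part in the *Mmp2* result was not tested.

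*Mmp14* (chromosome 14, 54431612 to 54441265) did not share this decrease. Its level was 36.2, 38.5 and 51.1 CPM in Sham, 38.2, 43.2 and 44.6 CPM in Fracture and 38.0, 41.3 and 44.7 CPM in Fracture+PDX. The log2 fold change was 0.05 (95% interval -0.11 to 0.22) in Fracture and 0.04 (95% interval -0.13 to 0.21) in Fracture+PDX. The difference between *Mmp2* and *Mmp14* was itself not tested. Among 17 metalloproteinases tested in Fracture against Sham, *Mmp2* was called lower and 0 were called higher, beside 2.92% of all genes called, with a median log2 fold change of -0.09. Among 16 tested in Fracture+PDX against Sham, *Mmp16*, a membrane-type enzyme at 0.624 FPKM, was called higher at 0.69 (SE 0.15; edgeR adjusted p = 0.0212), beside 4.5% of all genes called, and the median was -0.06. In each comparison 3 of these genes had an unadjusted p under 0.05.

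*Serpina3n* (chromosome 12, 104406729 to 104414329), a serine protease inhibitor of the acute phase that glia also make, ran against *A2m*. Its level was 185, 205 and 221 CPM in Sham at the lowest, median and highest. In Fracture it was 209, 226 and 271 CPM, and in Fracture+PDX 223, 228 and 250 CPM. All 6 Fracture+PDX libraries lay above every Sham library, and 4 of the 6 Fracture libraries did. The log2 fold change was 0.18 in Fracture+PDX (SE 0.038; edgeR adjusted p = 0.0173) and 0.17 in Fracture (SE 0.043; edgeR adjusted p = 0.0543). *Serpina3n* was the 1 of the 9 other members called in Fracture+PDX against Sham, in which 4.5% of all genes were called. The call held without each library in turn (adjusted p 0.0142 to 0.0479). With the placental covariate the difference was 0.096 (SE 0.072; edgeR adjusted p = 0.934).

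The bases before the start of *Serpina3n* are shown because it was the inhibitor of the set called higher. RefSeq (GRCm38.p6) held promoters for 8 of the 10 members. The 250 bases before the start of *Serpina3n* lie at chr12:104406458-104406707 on the plus strand. Capitals mark a match to ACANNNTGT, the core of a glucocorticoid response element, 76 bases before the start.
Serpina3n: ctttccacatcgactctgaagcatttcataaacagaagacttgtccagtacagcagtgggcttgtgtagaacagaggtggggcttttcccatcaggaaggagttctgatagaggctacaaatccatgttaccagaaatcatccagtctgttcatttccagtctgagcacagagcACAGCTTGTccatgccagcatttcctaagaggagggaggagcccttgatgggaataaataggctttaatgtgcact
Both strands were searched, and 5.84% of 32851 promoters of the same length held this core. TTCNNNGAA, a Stat element, was found in 7.02% of promoters and before *Lrp1* alone among the members. TGANTCA, an AP-1 element, was found in 6.75% of promoters and before none of the 8 members. GGGCGG, a GC box, was found in 32.7% of promoters and before 6 members. None of these matches is evidence that a factor binds there.

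*Serpine2* (chromosome 1, 79794197 to 79858696), or protease nexin-1, which blocks thrombin and urokinase, showed little difference. It ran from 88.2 to 101 CPM in Sham, from 79.8 to 100.3 in Fracture and from 88.4 to 102 in Fracture+PDX. The log2 fold change was -0.08 (95% interval -0.19 to 0.032) in Fracture and 0.0074 (95% interval -0.093 to 0.11) in Fracture+PDX. *Lrp1* (chromosome 10, 127538161 to 127621148), the clearance receptor, had 177, 201 and 223 CPM in Sham, 160.1, 170.1 and 187 CPM in Fracture and 165, 172 and 195 CPM in Fracture+PDX. Of the 6 Fracture libraries 4 lay below every Sham library, as did 5 of the 6 Fracture+PDX libraries. The log2 fold changes were -0.20 (SE 0.058; edgeR adjusted p = 0.0846) and -0.18 (SE 0.058; edgeR adjusted p = 0.102). Without Sham female 1, the edgeR adjusted p was 0.0363 in Fracture and 0.0372 in Fracture+PDX. Each other omission left it at 0.0582 to 0.182 in Fracture. There the adjusted p was 0.0228 with DESeq2 and 0.0455 in one edgeR fit of all 18 libraries.

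**Figure D3:**
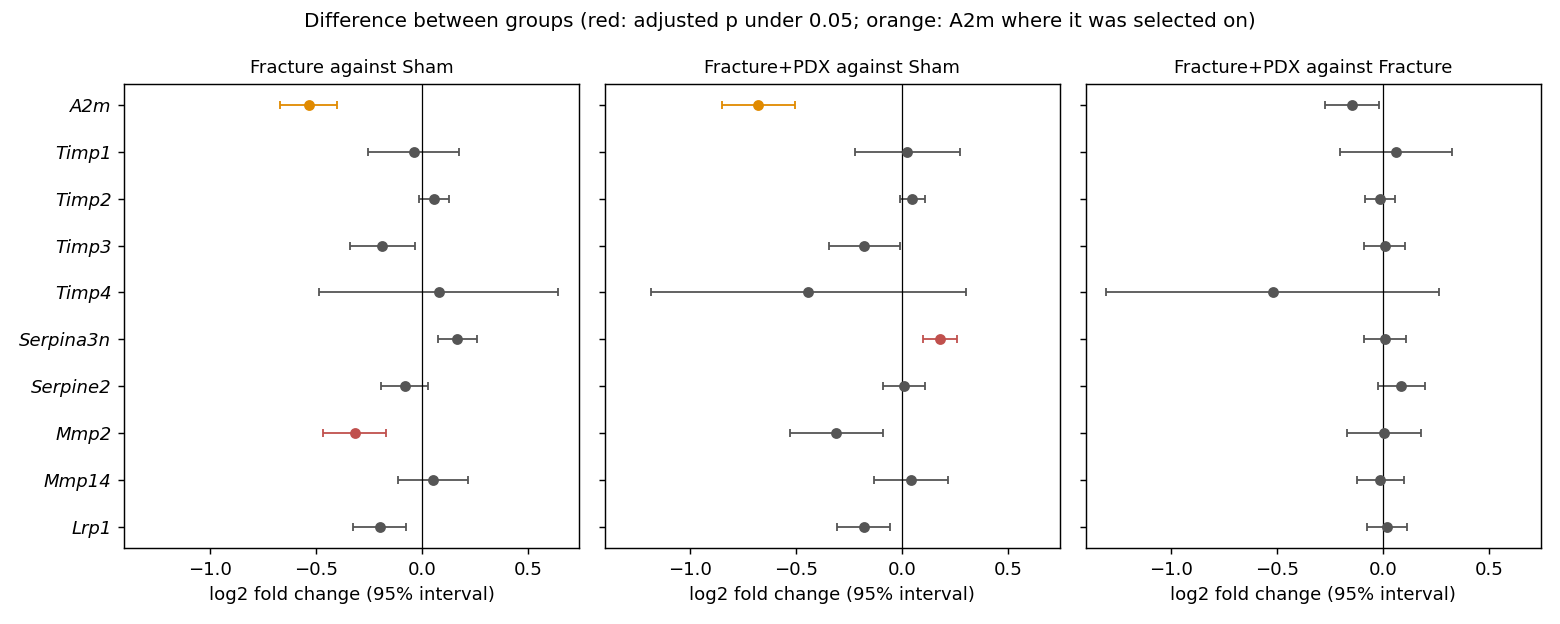
Log2 fold change (x axis) with its 95% interval for the 10 genes (y axis) in the 3 comparisons, in red at an adjusted p under 0.05 and in orange for *A2m* where it was selected on. Against Sham, *Mmp2* (-0.32 in Fracture) and *Serpina3n* (0.18 in Fracture+PDX) are red, and against Fracture no gene is.

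In Fracture+PDX against Fracture 0 of the 10 members were called by edgeR, by DESeq2 or by limma on log2 FPKM, and by edgeR *A2m* alone had an unadjusted p under 0.05. Apart from *A2m* and *Timp4*, the log2 fold changes ran from -0.014 for *Mmp14* to 0.087 for *Serpine2*, with adjusted p from 0.917 up. The widest of their 95% intervals was that of *Timp1*, from -0.20 to 0.32. *Timp4* had -0.52 (95% interval -1.31 to 0.26; edgeR adjusted p = 0.935), at few counts.

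Per length, the order of the members was *Timp2*, *Serpina3n*, *Timp3*, *Mmp2*, *Timp1*, *Serpine2*, *Lrp1*, *Mmp14*, *A2m* and *Timp4*. *Serpina3n* had 97.3 ± 8.40 FPKM, *Timp3* 41.6 ± 4.57 and *Mmp2* 19.97 ± 3.08 (SD, n = 18). *Timp1* followed at 15.2 ± 2.66 FPKM, *Serpine2* at 10.2 ± 0.704 and *Lrp1* at 9.30 ± 0.965. *Mmp14* had 6.27 ± 0.586 FPKM, *A2m* 5.14 ± 1.25 and *Timp4* 0.106 ± 0.0423. Neighbours overlapped in their ranges for *Mmp2* and *Timp1*, for *Timp1* and *Serpine2*, for *Serpine2* and *Lrp1*, and for *Mmp14* and *A2m*. *Mmp14* was above *A2m* in 14 of the 18 libraries.

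**Figure D4:**
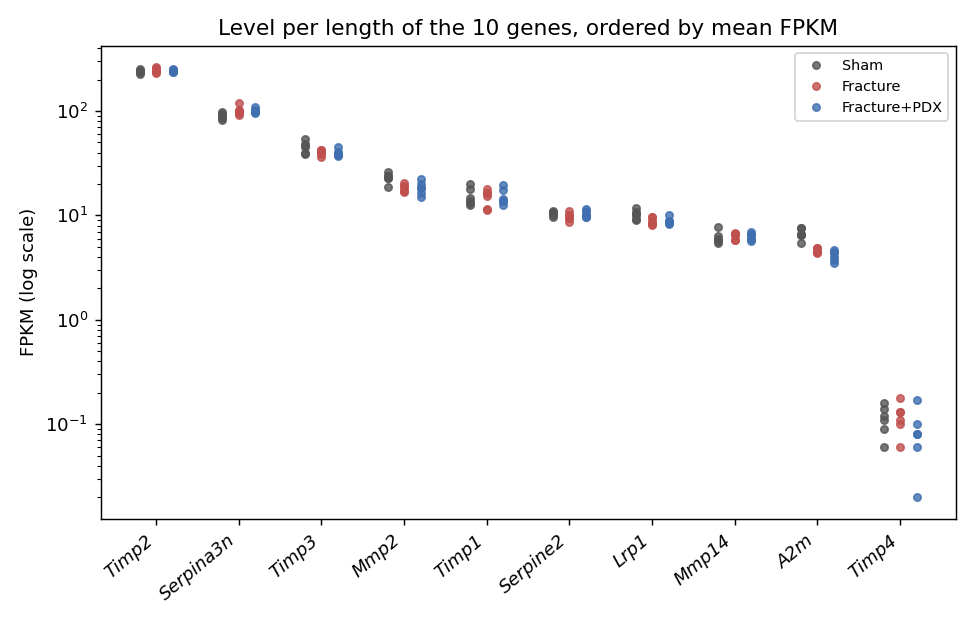
Deposited FPKM (y axis, log scale) of the 10 genes (x axis, ordered by mean), 1 point per library, with 6 libraries of each group side by side. *Timp2* stands highest at 244 FPKM on average and *Timp4* lowest at 0.106 FPKM, and *A2m* changes places with *Mmp14* between Sham and the fracture groups.

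Summed over the members, inhibitors far exceeded the proteases at the RNA level. *Timp1* to *Timp4* together had 300.2 ± 8.17 FPKM in Sham, 302 ± 11.4 in Fracture and 299 ± 5.97 in Fracture+PDX (SD, n = 6). *Mmp2* and *Mmp14* together had 29.3 ± 2.76, 24.8 ± 1.59 and 24.7 ± 3.01 FPKM. The TIMP sum per MMP sum was therefore 10.3 ± 1.03 in Sham, 12.2 ± 0.869 in Fracture and 12.3 ± 1.59 in Fracture+PDX, with groups that overlapped. *A2m* made up 1.64% ± 0.166 of the summed FPKM of the 7 inhibitors in Sham, 1.102% ± 0.0451 in Fracture and 0.997% ± 0.110 in Fracture+PDX. These ratios are given as a description of RNA levels, with no test. They rest on the choice of members, 4 TIMPs beside 2 metalloproteinases, and leave out all other proteases.

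**Figure D5:**
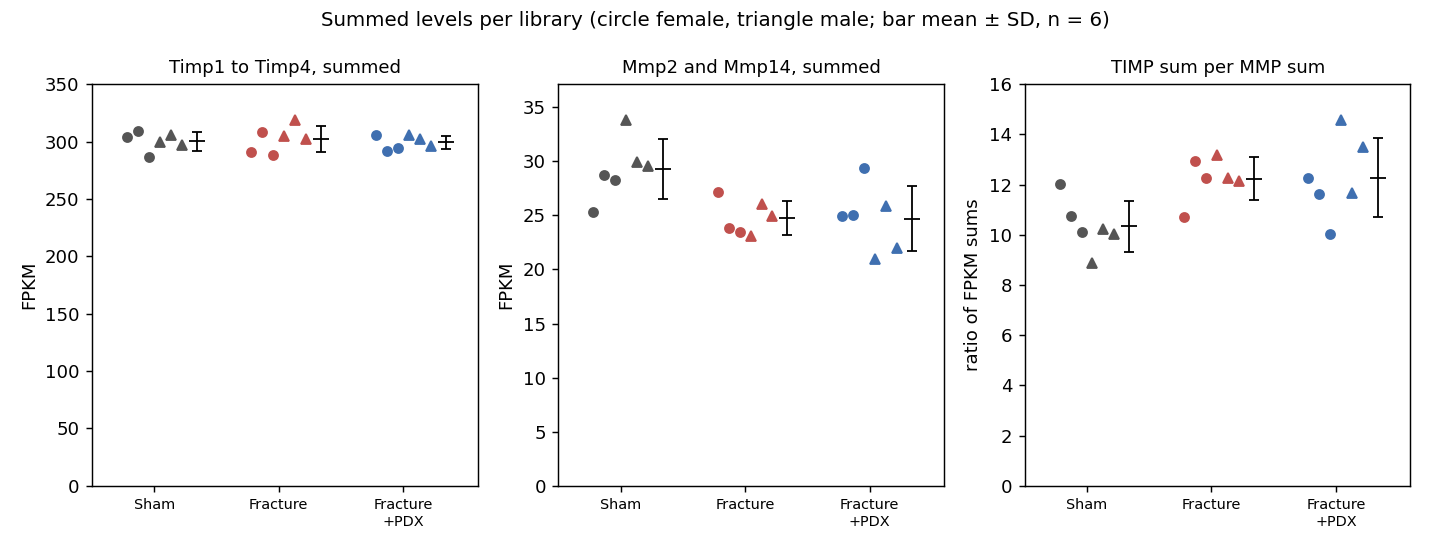
Summed FPKM of *Timp1* to *Timp4*, of *Mmp2* and *Mmp14*, and their ratio (y axes, from 0) in each library by group, with circles for females, triangles for males and bars for the mean ± SD of 6 libraries. The mean TIMP sum is 300.2 FPKM in Sham and 302 in Fracture, while the mean MMP sum is 29.3 and 24.8 FPKM.

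Among the 36 serpins tested in each comparison, which include *Serpina3n* and *Serpine2*, 4 were called lower in each and 2 higher in Fracture+PDX, beside 2.92% and 4.5% of all genes called. Over all genes 378 of the 603 called in Fracture and 478 of the 925 called in Fracture+PDX were lower. *Serpinh1*, the collagen chaperone of the endoplasmic reticulum, had the smallest p, with a log2 fold change of -0.45 (SE 0.050; edgeR adjusted p = 0.0021) in Fracture and -0.42 (SE 0.042; edgeR adjusted p = 0.000459) in Fracture+PDX. *Serpinb9b* and *Serpinb6b*, intracellular serpins, had log2 fold changes of -1.41 and -1.02 in Fracture and of -1.54 and -1.09 in Fracture+PDX. *Serpinb1a*, an inhibitor of neutrophil proteases, rose in Fracture+PDX by 0.34 (SE 0.070; edgeR adjusted p = 0.0166). The 6 neutrophil markers summed to 60.5–269 CPM in Sham, 64.9–140 in Fracture and 57.2–346 in Fracture+PDX, with 0 called by edgeR in any comparison, and all 6 had an unadjusted p under 0.05 in Fracture+PDX against Fracture (median log2 fold change 1.13). Their part in the *Serpinb1a* difference was not tested. The medians of the list were -0.05 and 0.02. With the placental covariate *Serpinh1* had -0.40 and -0.39, *Serpinb9b* -0.62 and -0.53 and *Serpinb6b* -0.64 and -0.48 in Fracture and Fracture+PDX, and *Serpinb1a* had 0.18 in Fracture+PDX.

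Of 24 further protease inhibitors, 3 were called lower and 1 higher in Fracture, and 2 lower and 1 higher in Fracture+PDX, where 2.92% and 4.5% of all genes were called. *Tfpi* and *Tfpi2*, Kunitz inhibitors of coagulation proteases and plasmin, had log2 fold changes of -1.30 and -1.39 in Fracture. With the placental covariate these were -0.54 and -0.58. In Fracture+PDX *Tfpi* went from -1.28 to -0.067 and *Tfpi2* from -1.25 to -0.28 with that covariate. *Spint2*, an inhibitor of cell surface serine proteases, was lower in Fracture (-0.51, SE 0.12; edgeR adjusted p = 0.0336). *Spock2*, a proteoglycan that can regulate MMPs, was the gene called higher in both, at 0.16 and 0.17 (edgeR adjusted p = 0.0184 and 0.00763). The medians of this list were -0.30 in Fracture and -0.13 in Fracture+PDX.

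The other lists are set beside all genes, of which 2.92% were called in Fracture and 4.5% in Fracture+PDX. Over all genes, 3817 of the 20659 tested in Fracture and 3695 of the 20574 in Fracture+PDX had an unadjusted p under 0.05. Of 18 genes of the plasminogen system and cell surface serine proteases, *Htra1*, a secreted serine protease that cuts matrix proteins, rose in Fracture by 0.14 (SE 0.033; edgeR adjusted p = 0.0398), and 0 were called in Fracture+PDX. Their unadjusted p was under 0.05 for 7 and 10 genes, and their medians were -0.14 and -0.16. Of 27 ADAM and ADAMTS proteases tested 0 were called in either comparison, where 4 and 7 had an unadjusted p under 0.05. The most abundant, *Adam10*, had -0.21 in Fracture (edgeR adjusted p = 0.28). Of 15 cathepsins, lysosomal proteases, only *Ctsb* was called, at 0.11 in Fracture+PDX (SE 0.026; edgeR adjusted p = 0.0268). For cathepsins the unadjusted p was under 0.05 for 8 genes in Fracture and 4 in Fracture+PDX, with medians of -0.10 and -0.0097. Of 15 genes of the LDL receptor family and its chaperone, only *Lrp11* was called, at 0.12 in Fracture+PDX (SE 0.030; edgeR adjusted p = 0.0466) and at 0.043 with the placental covariate. For the LDL receptor family it was under 0.05 for 7 and 8 genes, with medians of 0.07 in both. *Stat3*, a transcription factor of the acute phase response, was called at 0.14 in Fracture+PDX (SE 0.034; edgeR adjusted p = 0.0337). It was the 1 gene called among the 17 tested of its acute phase list, and 0 were called in Fracture. The medians of that list were -0.23 in Fracture and -0.12 in Fracture+PDX, with an unadjusted p under 0.05 for 5 and 3 genes. In Fracture+PDX against Fracture edgeR called 0 genes of these 10 lists, and 16 of their genes had an unadjusted p under 0.05.

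Across sexes, with group as a covariate, edgeR called 0 of the 10 members and 0.275% of 22557 genes; *Timp1*, *Serpina3n* and *Timp4* had an unadjusted p under 0.05. *Timp1* averaged 16.5 CPM in males and 13.3 in females, a log2 difference of 0.31 (SE 0.094; edgeR adjusted p = 0.199). For *Serpina3n* the means were 231 CPM in males and 212 in females, a difference of 0.12 (SE 0.035; edgeR adjusted p = 0.172). *A2m* averaged 41.4 CPM in males and 38.3 in females, with 0.11 (SE 0.056; edgeR adjusted p = 0.533). The interaction of sex with group was called for 0 members in the 3 comparisons by edgeR, beside 0.00486% of all genes in each of the comparisons with Fracture+PDX. In Fracture+PDX against Sham 1386 genes, and in Fracture+PDX against Fracture 851 genes, had an unadjusted p under 0.05. Among the members *Mmp2* and *Mmp14* had an unadjusted p under 0.05, both in Fracture+PDX against Sham, and *Mmp2* had the wider gap. Its log2 fold change was 0.41 more negative in males, with an interaction of -0.41 (SE 0.16; edgeR adjusted p = 0.72).

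The genes whose level was most like that of *A2m* over the 18 libraries, out of 21340, were *Fndc3b*, *Myof*, *Peg10*, *Arhgef5* and *1700017B05Rik*, each with a Pearson r of 0.93. *Peg10*, an imprinted gene needed in the placenta, had 113 ± 30.4 CPM in Sham, 40.8 ± 7.71 in Fracture and 37.8 ± 8.17 in Fracture+PDX (SD, n = 6). *Myof* had 15.5 ± 2.09, 10.3 ± 1.34 and 10.2 ± 1.26 CPM. For deviations from the group means, the most like were *Desi2* (r = 0.82), *Myof* (0.81), *Dlx3* (0.81), *Orc3* (0.80) and *Tram2* (0.80). Among the members, *Mmp2* had an r of 0.69 with *A2m* over the libraries and 0.17 for deviations, *Lrp1* 0.66 and 0.20, and *Timp3* 0.65 and 0.36. *Serpina3n* had -0.49 over the libraries and 0.36 for deviations. All of these points share the 3 groups, and they are given without a test.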

How the data were processed

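Libraries of L3–L5 DRG were made with a stranded TruSeq mRNA kit after poly(A) selection and sequenced as paired ends for the authors by LC Sciences. The authors deposited counts of reads per gene, without normalization, and FPKM values, scaled by transcript length and by mapped fragments. The submitters' processing notes name mm10, cutadapt 1.10, FastQC, HISAT2 and StringTie. The counting program and its strand setting are not given in the sources used here. Columns headed "Con" were read as Sham, the group with no other columns.

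Differences between groups were fitted with edgeR 4.0.16 (R 4.3.3): filterByExpr (minimum count 10), TMM scaling and robust quasi-likelihood fits with sex and group on the 12 libraries of each comparison, adjusted by Benjamini-Hochberg over all genes tested (threshold 0.05). The 3 comparisons share libraries. Log2 CPM used a prior count of 2. The fits were tested on simulated data. Alternatives were DESeq2 1.42.0, limma 3.58.1 on log2(FPKM + 1) and log2(FPKM + 0.1), upper-quartile scaling, other filters, no sex covariate, a replicate block, all 18 libraries in one fit and leaving out each library. A placental covariate was added after seeing the data. The members, gene lists and tests were chosen with earlier results of these data known. Named list genes are the up to 5 with the smallest p in Fracture against Sham among those called in either comparison with Sham, otherwise up to 2 with the highest FPKM. A gene that this rule names is not reported here. The genes most like *A2m* are the 5 with the highest r. No 2 libraries were identical (highest correlation of log2 CPM 0.986). Sequences were read from GENCODE M21 transcripts and RefSeq promoters with Biopython 1.88 and pandas 2.3.3.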

Additional observations from a re-analysis of the deposited data

Results flagged for a closer look

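Of 30 sets of 6 libraries examined (10 genes in 3 groups), 3 had a library far from the others by Dixon's criterion (gap over range above 0.625), and chance alone flags about 1 set in 20. *Serpina3n* stood at 250.4 CPM in Fracture+PDX male 3, where the nearest library had 230.1 CPM. *Mmp14* stood at 51.1 CPM in Sham male 1, where the nearest had 41.2 CPM. *Lrp1* stood at 194.7 CPM in Fracture+PDX female 3, where the nearest had 172.8 CPM.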

How the results depend on the processing

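The log2 fold change of *A2m* kept its sign under every alternative run, in all 3 comparisons. In both comparisons with Sham the set was selected on this direction, so the kept sign there is a description and no support. Values below are in the order Fracture against Sham, then Fracture+PDX against Sham, then Fracture+PDX against Fracture, and causes were not tested. DESeq2 called 1506, 1627 and 10 genes, and 3 members other than *A2m* in each comparison with Sham. With a replicate block for each number within a sex, 118 and 486 genes were called and 0 members other than *A2m* in each. *Mmp2* was then at -0.32 with an edgeR adjusted p of 0.121 in Fracture against Sham. *Serpina3n* was at 0.18 with 0.064 in Fracture+PDX against Sham. The correlations of same-numbered mice ran from -0.138 to 0.259 and were over 0.1 in 5 of 18 pairs. Among these were all 3 male pairs of Fracture+PDX against Fracture (0.259, 0.148 and 0.191). Most pairs thus did not show paired mice, and for those males it cannot be told. With 1 exception (*Mmp2*, below) the block turned no direction. One fit of all 18 libraries called 2 members other than *A2m* in Fracture against Sham, *Serpina3n* and *Lrp1* (edgeR adjusted p = 0.0385 and 0.0455), and not *Mmp2* (0.0551). With the placental covariate 1 and 0 genes and 0 members other than *A2m* were called. Leaving out 1 library gave 213 to 710, 498 to 1008 and 0 to 1 genes, with 213 without Fracture female 2, 498 without Fracture+PDX female 1 and 1 without Fracture+PDX female 3. The members other than *A2m* called were then 0 to 2 and 1 to 3, and the *A2m* difference in the exact permutation test -0.19 to -0.12.

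Differences that were not called changed sign. With the placental covariate *Timp4* was at -0.10 and *Serpine2* at 0.013 in Fracture against Sham, *Timp1* at -0.49 in Fracture+PDX against Sham, and *Timp1* at -0.0027, *Serpina3n* at -0.0011 and *Mmp2* at -0.0055 in Fracture+PDX against Fracture. With limma on log2(FPKM + 1) and log2(FPKM + 0.1), *Timp1* was at -0.0014 and -0.0013 and *Serpine2* at -0.0093 and -0.010 in Fracture+PDX against Sham, and *Timp3* at -0.00088 and -0.00094 and *Mmp2* at -0.0068 and -0.0076 in Fracture+PDX against Fracture. There *Mmp2* was at -0.00033 without a filter and -0.0012 with the replicate block. Leaving out 1 library gave -0.13 to 0.013 for *Timp1* and -0.041 to 0.20 for *Timp4* in Fracture against Sham. In Fracture+PDX against Sham it gave -0.053 to 0.087 for *Timp1* and -0.019 to 0.029 for *Serpine2*. In Fracture+PDX against Fracture it gave -0.012 to 0.13 for *Timp1*, -0.029 to 0.012 for *Timp2*, -0.027 to 0.025 for *Timp3*, -0.0076 to 0.054 for *Serpina3n*, -0.048 to 0.053 for *Mmp2*, -0.052 to 0.017 for *Mmp14* and -0.013 to 0.040 for *Lrp1*. At these depths *Timp4* is limited by its few counts.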
